A study of Mus musculus with 18 samples.

Results

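The genes examined here carry out MHC class I antigen presentation in WEHI-231 cells, a murine B cell lymphoma line derived from a BALB/c×NZB mouse. The 10 genes were set as a list by name and were all found among the 55487 Ensembl genes of the count tables, and all 10 were among the 15318 genes that passed the filter on low counts. They are the heavy chain genes H2-K1, H2-D1, H2-T23 and H2-M3, the light chain gene B2m, the peptide transporter genes Tap1 and Tap2, the tapasin gene Tapbp, the immunoproteasome gene Psmb8 and the transactivator gene Nlrc5. RNA was measured in parental cells and in the TFEB mutant clones named #A-59 and #B-20, either before (0 h) or 6 or 18 h after addition of F(ab')2 fragments directed at murine IgM, at 10 µg/ml. Each of the 9 groups had 2 libraries, which the study describes as independent experiments. The mutants were made in the parental line by electroporation of Cas9 with crRNAs against exons of murine Tfeb and were grown from single cells, so each mutant is 1 clone, and an effect of TFEB loss cannot be told apart from a property of that clone. The parental cells are the unedited line and not a clone that went through the same procedure.

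Cells display peptides of their own proteins on MHC class I molecules. Proteasomes, in part with the inducible subunit encoded by Psmb8, cut proteins into peptides, the TAP1-TAP2 transporter moves them into the endoplasmic reticulum, and tapasin helps to load them onto a heavy chain paired with β2-microglobulin. H2-K1 and H2-D1 encode classical heavy chains, while H2-T23 (Qa-1) and H2-M3 encode nonclassical ones, H2-M3 being known for the presentation of N-formylated peptides. NLRC5 is the class I counterpart of CIITA, the transactivator of MHC class II, and acts through an upstream module whose X and Y boxes are shared by both gene classes, while kappa B and interferon-response elements add inducible control.

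B2m lies on chromosome 2 (GRCm38, positions 122147687 to 122153082) and Nlrc5 on chromosome 8 (94434335 to 94527272). The other members lie on chromosome 17 within or near the MHC, from Tapbp at its low end (33919478 to 33929290) to H2-M3 at its high end (37270234 to 37274485). Tap1 (34187556 to 34197225) and Psmb8 (34198195 to 34201454) are neighbours. The promoters are shown because the members moved in part together and in part apart. RefSeq promoter sequences (GRCm38.p6) were held for 8 of the 10 members, not for Tap2 and Nlrc5. In the 250 bases before the start, both strands were searched for the X2 box core TGACG, the Y box ATTGG, the interferon-response letters AANNGAAA and the kappa B letters GATTCCCC. Below are the 180 bases before the start of the gene that was lower in both clones (H2-M3), of a classical heavy chain gene, of B2m and of Tap1, with every match to those 4 motifs in capitals. They are reference sequence of C57BL/6 and not of the WEHI-231 alleles.
H2-M3, chr17:37270054-37270233, plus strand: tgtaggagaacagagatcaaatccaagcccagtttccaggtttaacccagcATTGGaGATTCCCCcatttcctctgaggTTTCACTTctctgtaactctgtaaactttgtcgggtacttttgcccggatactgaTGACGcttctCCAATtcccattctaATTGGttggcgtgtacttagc
H2-D1, chr17:35262914-35263093, plus strand: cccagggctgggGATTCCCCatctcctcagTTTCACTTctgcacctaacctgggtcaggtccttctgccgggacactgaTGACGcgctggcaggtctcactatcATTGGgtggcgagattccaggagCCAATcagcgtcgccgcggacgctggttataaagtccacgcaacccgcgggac
B2m, chr2:122147507-122147686, plus strand: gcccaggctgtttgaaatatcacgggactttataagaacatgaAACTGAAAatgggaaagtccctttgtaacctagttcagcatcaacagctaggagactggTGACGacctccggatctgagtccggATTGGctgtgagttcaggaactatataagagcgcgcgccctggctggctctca
Tap1, chr17:34187376-34187555, plus strand: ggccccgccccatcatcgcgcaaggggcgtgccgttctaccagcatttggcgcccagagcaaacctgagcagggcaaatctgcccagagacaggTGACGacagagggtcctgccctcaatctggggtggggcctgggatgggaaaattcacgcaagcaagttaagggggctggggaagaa

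The H2-M3 and H2-D1 windows both held all 4 motifs, and the B2m window held all but the kappa B letters. An X2 box core was present in 5 of the 8 members (H2-K1, H2-D1, H2-M3, B2m and Tap1), against 17.8% of the 27018 genes with a promoter sequence. The Y box letters were present in 7 of 8 against 34.5%, the interferon-response letters in 5 of 8 against 21.6%, and the kappa B letters in the 3 heavy chain genes H2-K1, H2-D1 and H2-M3 against 0.755%. Spacing was not part of the search. In Tap1 the Y box letters lay 222 bases before the start, upstream of the X2 core at 86, and Tapbp held Y box letters without an X2 core. The motif of TFEB's own binding sites, the E box CACGTG, was in none of the 8 windows, against 6.04% of all genes. GENCODE vM39 lists transcripts that start further upstream for H2-D1, B2m and Tap1, but none that covers the H2-M3 window.

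The libraries held between 11223588 and 29655262 counts (median 19846544). Levels are given as CPM, counts relative to the TMM-scaled library size, and 3 counts, used as the floor, correspond to 0.102 to 0.268 CPM. The floor allows for counting error alone, because amplified reads that carry no molecular identifier are not separate molecules. Tfeb RNA was present but lower in both clones, at 79.2 to 99.9 CPM in the parental libraries, 25.5 to 40.5 CPM in #A-59 and 34.2 to 54.1 CPM in #B-20, and passed the test described below in both at each time. The 7 B cell marker genes summed to at least 5950 CPM in every library. The T cell list stayed at or under 1.04 CPM in sum, with Cd3e and Cd8a at or under 3 counts throughout. Likewise, 3 of 5 fibroblast genes were at or under 3 counts, but the other fibroblast genes were not. The highest fibroblast sum was 7.18 CPM for #B-20, 4.89 CPM for #A-59 and 2.07 CPM for the unedited line. Their lowest sums were 1.18, 1.76 and 1.7 CPM. Pdgfrb peaked at 6.5, 4.39 and 1.92 CPM in that order, and Col1a1 never exceeded 0.675 CPM. The 5 macrophage genes summed to 13.4 to 38.5 CPM in #A-59, against 6.7 to 17.8 CPM in parental cells and 6.66 to 14.1 CPM in #B-20, with Lyz2 at or under 1 count in every library. Among them Itgam measured 7.16 to 26.3 CPM in #A-59, against 0.306 to 8.38 CPM in parental cells and 1.43 to 6.53 CPM in #B-20. The ranges of Cd68 overlapped (5.64 to 10.7, 4.43 to 9.13 and 3.72 to 7.18 CPM), and Adgre1 and Csf1r stayed at or under 2.16 CPM. The part of the fibroblast and macrophage genes in the results below was not tested.

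In untreated parental cells the members covered a wide range of levels. Per kilobase of exon, B2m was highest with a mean of 209 CPM, followed by H2-D1 with 89 and H2-K1 with 57.1. Tapbp (49.4) and Psmb8 (47.7) came next, with Tap2 (15), Tap1 (13.5) and H2-T23 (9.96) below them. H2-M3 reached 3.17 CPM per kilobase and Nlrc5 0.0843. These levels rest on reads that can be assigned to 1 gene, and 25.5% of the 50-base stretches of H2-K1, 27.7% of H2-D1 and 31.1% of H2-T23 also occur in transcripts of other genes. Tapbp shares 46.8% with overlapping gene models, among them Zbtb22, and Tap1 overlaps Psmb9, which counts without strand cannot separate. WEHI-231 cells moreover carry H-2 alleles that differ from the C57BL/6 reference, so that a part of the heavy chain reads may not have been counted.

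**Figure D1:**
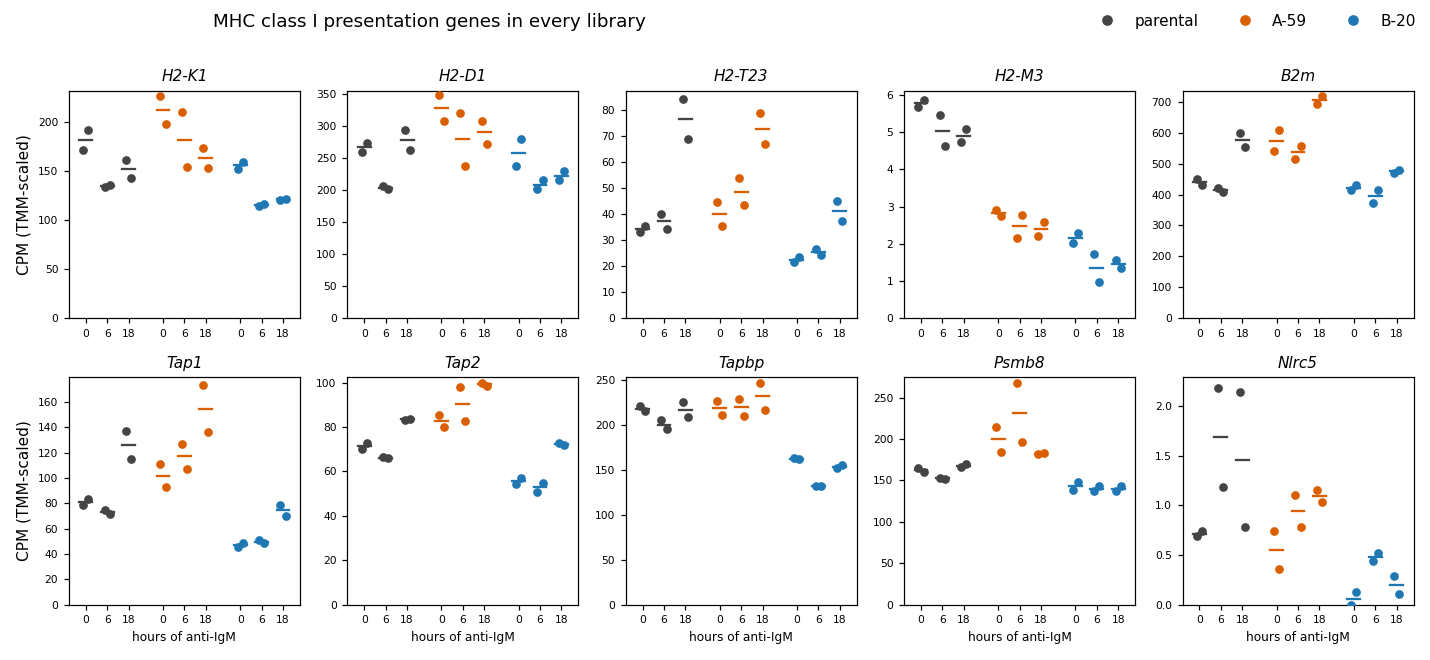
CPM of each of the 10 genes (vertical axes from 0) in all 18 libraries, as points, with bars at the mean of the 2 libraries, at 0, 6 and 18 h of stimulation. H2-M3 was lower in every library of both clones than in any parental library, whereas the Tap1 libraries of #A-59 lay above and those of #B-20 below the parental ones at 0 and 6 h, and Tap1 rose after 18 h in all 3 genotypes.

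H2-M3 was the only member lower in both clones. The parental libraries measured 5.68 and 5.88 CPM at 0 h, 5.46 and 4.62 CPM after 6 h, and 4.73 and 5.08 CPM after 18 h. Clone #A-59 gave 2.91 and 2.74 CPM, 2.16 and 2.78 CPM, and 2.2 and 2.59 CPM at these times. Clone #B-20 gave 2.01 and 2.29 CPM, 1.72 and 0.98 CPM, and 1.56 and 1.34 CPM. The genotypes thus did not overlap at any time, and every mutant library lay below every parental one. With 2 libraries a side this is common. At 0, 6 and 18 h, 55.8%, 62.5% and 61.2% of all genes did not overlap between #A-59 and parental cells. For #B-20 the shares were 61.7%, 66.8% and 62.1%. In bulk RNA, fewer cells with the transcript and less of it per cell cannot be told apart. Relative to parental cells, #A-59 changed on the log2 scale by −1.02 ± 0.2 (SE) at 0 h, −1.05 ± 0.211 after 6 h and −1.04 ± 0.225 after 18 h, with adjusted p-values of 0.00114, 0.000778 and 0.00276 (edgeR quasi-likelihood test, Benjamini-Hochberg over all genes). For #B-20 it was −1.42 ± 0.221, −1.86 ± 0.235 and −1.76 ± 0.227, with adjusted p-values of 0.000118, 8.11e-06 and 1.18e-05. Both clones were compared with the same parental libraries, so their shared direction was not shown independently in each. H2-M3 did not pass the test between the clones, where #B-20 was lower than #A-59 by a log2 value of −0.40 at 0 h (95% interval −0.89 to 0.10), −0.81 after 6 h (adjusted p = 0.0228) and −0.71 after 18 h (adjusted p = 0.0369). In #B-20 the call held without any single library, at log2 values between −2.37 and −1.33. In #A-59 the values stayed between −1.22 and −0.87, but the adjusted p lost the threshold of 0.01 without any one of the 4 libraries at 0 h (highest 0.0162) and after 18 h (highest 0.0551), and without either first replicate after 6 h (highest 0.0214). H2-M3 shares only 0.51% of its 50-base stretches with other genes.

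Calls were made at an adjusted p under 0.01, and as a DEG where the log2 fold change also lay outside −1 to 1, as the study defined it. H2-M3 was the only DEG of the 10 in either clone at 0 and 6 h, and was joined by Nlrc5 in #B-20 after 18 h. Over all genes tested, 2.48%, 3.64% and 2.91% were DEGs lower in #A-59 (0, 6 and 18 h), and 3.37%, 3.85% and 4.3% were DEGs lower in #B-20.

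Among the other members, several were lower in #B-20, and several were higher in #A-59 after 6 h. Part of these calls depended on single libraries and on the GC correction, as given below. In #B-20, 5 members were lower at 0 h, 4 after 6 h and 5 after 18 h, where 6.66%, 8% and 8.55% of all genes were lower by the same test. Besides H2-M3 these were Tap1, Tapbp and H2-T23 at each time, Tap2 at 0 h and Nlrc5 after 18 h. The median log2 fold change of the 10 genes was −0.39 at 0 h, −0.44 after 6 h and −0.41 after 18 h, beside 0.00, 0.01 and 0.01 over all genes. In #A-59, 1 member was higher and 1 lower at 0 h, 6 were higher and 1 lower after 6 h, and 1 was lower after 18 h. The shares of all genes were 5.09% higher and 4.47% lower at 0 h, 11.4% and 11.3% after 6 h, and 4.75% and 5.68% after 18 h. The median of the 10 genes was 0.23, 0.41 and 0.10 at these times, beside −0.01, −0.01 and −0.02 over all genes. At each time both clones were compared with the same parental libraries, so the 2 comparisons are not independent. An error in those libraries would shift both clones in the same direction.

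**Figure D2:**
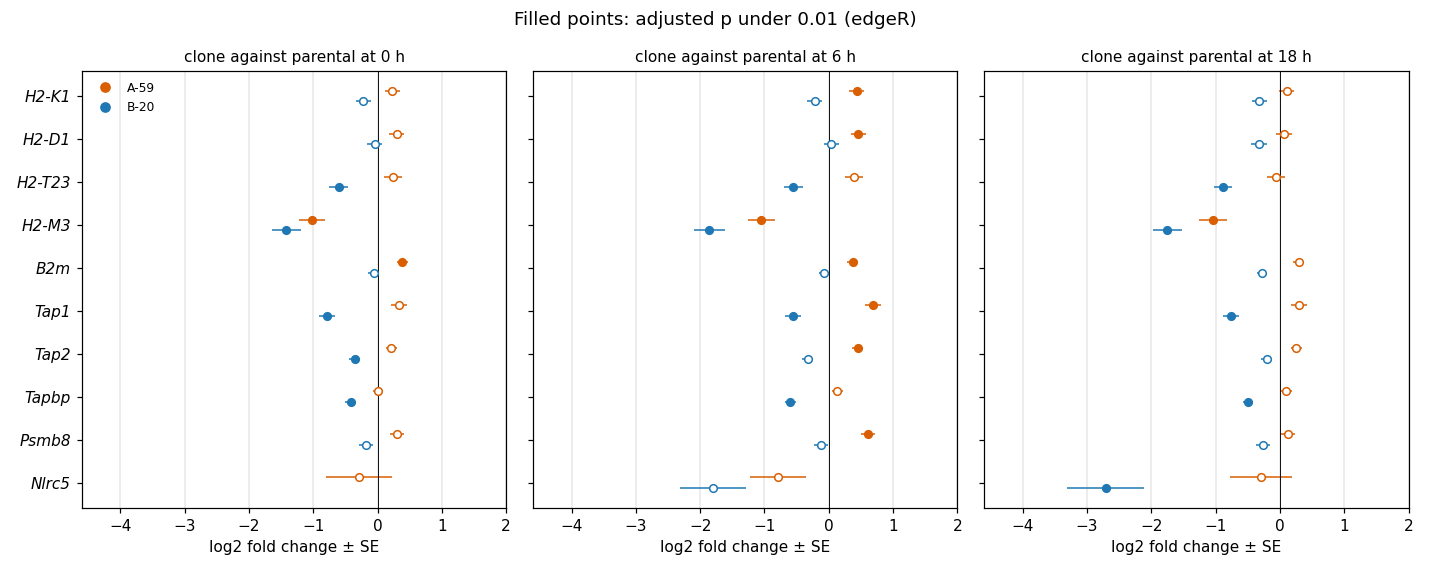
Log2 fold change ± SE of each gene in #A-59 and #B-20 against parental cells at 0, 6 and 18 h (edgeR, 2 libraries per group). Filled points have an adjusted p under 0.01, and Nlrc5 of #B-20 at 0 h is left out because its counts were at or under the floor. H2-M3 lies at −1.02 to −1.86 in both clones, and Tap1 at 0.30 to 0.68 in #A-59 and −0.55 to −0.78 in #B-20.

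Of the transporter genes, Tap1 measured 78.4 and 83.2 CPM in untreated parental cells, 111 and 92.8 CPM in #A-59, and 45.6 and 48.4 CPM in #B-20. At 6 h the values were 74.5 and 71.4 CPM in parental cells, 127 and 107 CPM in #A-59, and 50.8 and 48.5 CPM in #B-20. At 18 h they were 137 and 115 CPM, 173 and 136 CPM, and 78.4 and 70.3 CPM. #B-20 lay below the other genotypes at every time, and #A-59 overlapped parental cells after 18 h only. Tap1 was lower in #B-20 than in parental cells by log2 values of −0.78 ± 0.125, −0.55 ± 0.124 and −0.76 ± 0.122, with adjusted p-values of 0.000157, 0.00276 and 0.000127. At 6 h this call was lost without any one of the 4 libraries (highest adjusted p = 0.0328). In #A-59 Tap1 was higher after 6 h, by 0.68 ± 0.121 with an adjusted p of 0.000248, and at 0 and 18 h the differences of 0.34 and 0.30 had adjusted p-values of 0.0698 and 0.104.

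Tap2, which encodes the partner of TAP1, followed at smaller size. It measured 70.2 and 72.6 CPM in untreated parental cells, 85.4 and 79.9 CPM in #A-59 and 54.5 and 57 CPM in #B-20. In #B-20 it was lower at 0 h by −0.36 ± 0.088 (adjusted p = 0.00727), with −0.33 and an adjusted p of 0.0103 after 6 h, and in #A-59 it was higher after 6 h by 0.45 ± 0.086 (adjusted p = 0.000493). The 0 h call in #B-20 was lost without any one of the 4 libraries, where the highest adjusted p was 0.0773.

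Tapbp, which encodes the peptide loading factor tapasin, was lower in #B-20. Without stimulation its CPM was 221 and 215 in the parental line, 227 and 211 in #A-59 and 163 and 162 in clone #B-20. At 6 h it was 205 and 195, 229 and 210, and 132 and 132, and after 18 h 225 and 209, 247 and 217, and 152 and 155. #B-20 was lower than parental cells by −0.42 ± 0.083, −0.60 ± 0.083 and −0.50 ± 0.083, with adjusted p-values of 0.00123, 2.58e-05 and 0.000191. The 0 h call was lost without the first parental or either #B-20 library (highest adjusted p = 0.0174). #A-59 and parental libraries overlapped at 0 and 18 h, and the 95% interval of their difference at 0 h was −0.16 to 0.18. The direct test of #B-20 against #A-59 was passed at all 3 times. It gave −0.43, −0.73 and −0.59, with adjusted p-values of 0.00133, 3.53e-06 and 3.36e-05. The 0 h value fell to −0.22 with the GC correction described below and no longer passed (adjusted p = 0.0477), and it was lost without the first #A-59 or either #B-20 library (highest adjusted p = 0.0287).

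Among the heavy chains, the nonclassical H2-T23 was lower in #B-20 at each time, and the classical pair did not pass the test there. H2-T23 measured 33 and 35.3 CPM in parental cells, 44.5 and 35.4 CPM in #A-59 and 21.5 and 23.3 CPM in #B-20 at 0 h. #B-20 differed from parental cells by −0.61 ± 0.148 at 0 h, −0.55 ± 0.145 after 6 h and −0.89 ± 0.139 after 18 h, with adjusted p-values of 0.00686, 0.00922 and 0.000104. The first 2 of these calls were lost without any one of the 4 libraries compared (highest adjusted p 0.08 and 0.104). H2-K1 measured 172 and 192 CPM in parental cells, 227 and 198 CPM in #A-59 and 152 and 160 CPM in #B-20 at 0 h. At 6 h H2-K1 measured 134 and 136 CPM, 211 and 154 CPM, and 115 and 117 CPM. H2-D1 measured 259 and 274 CPM, 348 and 308 CPM, and 238 and 279 CPM at 0 h, and 206 and 201 CPM, 320 and 238 CPM, and 202 and 215 CPM after 6 h. Both classical genes were higher in #A-59 after 6 h, H2-K1 by 0.44 ± 0.12 (adjusted p = 0.0085) and H2-D1 by 0.46 ± 0.118 (adjusted p = 0.00579). The first #A-59 library after 6 h stood above the second, and without it the differences were 0.18 and 0.22 with adjusted p-values of 0.248 and 0.153. Both calls were also lost without either parental library. After 18 h #B-20 lay below parental cells in both genes, with 121 and 122 CPM against 162 and 143 CPM for H2-K1 and 215 and 229 CPM against 293 and 263 CPM for H2-D1. The log2 values of −0.32 and −0.33 did not pass (adjusted p = 0.0611 and 0.0548), and whether H2-T23 changed more than the classical pair was not tested. When the counts of 16 class I heavy chain genes were added up in each library, the sum was higher in #A-59 after 6 h by 0.49 ± 0.115 (adjusted p = 0.00302) and did not pass the test in #B-20 at any time, with −0.40 and an adjusted p of 0.0158 after 18 h.

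B2m, the light chain gene common to all these molecules, was slightly higher in #A-59. It measured 449 and 431 CPM in parental cells, 542 and 608 CPM in #A-59 and 414 and 430 CPM in #B-20 at 0 h. In #A-59 the log2 fold change was 0.39 ± 0.082 at 0 h and 0.37 ± 0.082 after 6 h, with adjusted p-values of 0.00251 and 0.00178, and 0.29 with an adjusted p of 0.0186 after 18 h. These calls were lost without either parental library (highest adjusted p 0.0494 at 0 h, there without the second #A-59 library, and 0.0314 after 6 h). #B-20 did not pass the test, with a difference of −0.28 after 18 h (adjusted p = 0.0174). With the GC correction described below, B2m was called lower there (−0.33, adjusted p = 0.00104). Psmb8 was higher in #A-59 after 6 h, where its libraries measured 268 and 196 CPM against 153 and 152 CPM in parental cells, a log2 fold change of 0.61 ± 0.11 (adjusted p = 0.000297). Without the first #A-59 library the Psmb8 value was 0.36 and still passed (adjusted p = 0.00597). In #B-20 Psmb8 stayed at 137 to 148 CPM in all 6 libraries.

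Nlrc5, the class I transactivator gene, was barely expressed. Its raw counts were 19 and 18 in parental cells at 0 h, 50 and 29 after 6 h, and 24 and 15 after 18 h. In #A-59 they were 22 and 7, 29 and 13, and 22 and 17, and in #B-20 they were 0 and 2, 9 and 8, and 8 and 3. All 6 libraries of #B-20 lay below all parental libraries. At 0 h both #B-20 libraries were under the floor of 3 counts per library, so the mean of Nlrc5 lay at least 3.7-fold below that of parental cells. This 0 h difference did not pass the test (adjusted p = 0.0138 with the GC correction described below). At 6 h the log2 fold change was −1.80 with an adjusted p of 0.0148, and after 18 h it was −2.71 ± 0.597 with an adjusted p of 0.00244. The 18 h call was lost without the first parental or the second #B-20 library (highest adjusted p = 0.0647). #A-59 did not pass the test at any time, and its 95% interval at 0 h ran from −1.37 to 0.78.

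The direct comparison of the clones showed the difference within the list most clearly. #B-20 was lower than #A-59 in 6 members at 0 h, 7 after 6 h and 6 after 18 h, where 5.67%, 10.6% and 8.09% of all genes were lower. The fold was negative for all 10 genes at each time, with medians of −0.46, −0.76 and −0.58 beside −0.00, 0.01 and 0.02 over all genes. Tap1 was a DEG at each time, with −1.12 ± 0.125, −1.24 ± 0.124 and −1.06 ± 0.121 and adjusted p-values of 3.57e-06, 7.64e-07 and 3.68e-06. Nlrc5 was a further DEG after 18 h, and 2.57%, 3.63% and 2.83% of all genes were DEGs lower in #B-20 at the 3 times. Tap2 and B2m passed the test at each time as well, at −0.57, −0.78 and −0.45 for Tap2 and −0.45, −0.45 and −0.57 for B2m. The log2 fold changes between these clones followed GC content over all genes (Spearman's rho −0.40 at 0 h, −0.45 after 6 h and −0.07 after 18 h), and Tap1, Tap2 and Tapbp, with 55.8%, 55.5% and 56.6% GC, lie at the 84.9th, 83.5th and 88.6th percentile of the genes tested. After a GC correction 5, 7 and 9 members were lower in #B-20 than in #A-59, and Tap1 was lower by −0.93 in untreated cells and −0.97 after 6 h, which is no longer past the fold limit of a DEG. Against parental cells, where rho was −0.34 at 0 h and −0.27 after 6 h, the corrected fit called 2, 3 and 6 members lower in #B-20. It ended the 0 h calls of H2-T23 (−0.47, adjusted p = 0.0106), Tap2 (−0.19, adjusted p = 0.0507) and Tapbp (−0.22, adjusted p = 0.0399) and the 6 h call of H2-T23 (−0.44, adjusted p = 0.0115). After 18 h it added B2m as lower in #B-20 (−0.33, adjusted p = 0.00104). In #A-59 it added B2m (0.29, adjusted p = 0.00366) and Tap2 (0.25, adjusted p = 0.00995) as higher after 18 h. For #A-59 against parental cells after 6 h, where rho was 0.20, the corrected fit called 6 members higher and 1 lower. The median of the 10 genes there was 0.32 with the correction. Shares of all genes were not taken from the corrected fit.

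**Figure D3:**
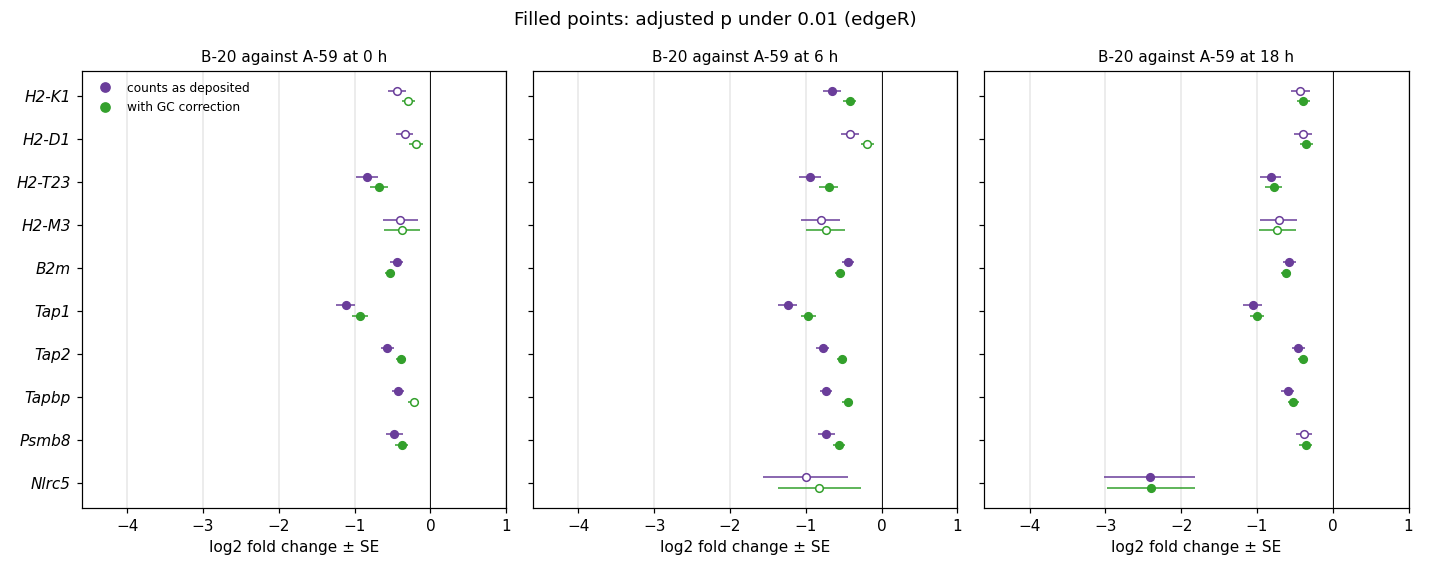
Log2 fold change ± SE of #B-20 against #A-59 at 0, 6 and 18 h for each gene, from the counts as deposited and after a GC correction. Filled points have an adjusted p under 0.01, and Nlrc5 at 0 h is left out. All values lie below 0, and Tap1 moves from −1.12 to −0.93 at 0 h and from −1.24 to −0.97 after 6 h with the correction.

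Stimulation through the BCR for 6 h changed no member at the adjusted p of 0.01 in any genotype by edgeR without the GC correction, on all 18 libraries after the filter on low counts. Of all genes, 7.34% changed in the parental line, 6.14% in #A-59 and 1.29% in clone #B-20. At an unadjusted p under 0.05 the counts were 3, 0 and 5 of 10, and DESeq2 called 1, 0 and 0. The values nearest to a call were those of the classical heavy chains, with −0.43 for H2-K1 (adjusted p = 0.0217) and −0.39 for H2-D1 (adjusted p = 0.0364) in parental cells. With the GC correction both were called lower in parental cells, by −0.42 and −0.38 (adjusted p = 0.00185 and 0.0044). H2-K1 was then also called lower in #B-20, by −0.44 (adjusted p = 0.00519).

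After 18 h 3 members were higher and 0 lower in each genotype by edgeR, where 16.4% of all genes were higher in the parental line, 14.7% in #A-59 and 11.4% in clone #B-20. Without the GC correction, H2-T23 and Tap1 rose in all 3 genotypes, B2m in parental cells and #A-59, and Tap2 in #B-20. H2-T23 went from 33 and 35.3 CPM to 84.4 and 68.9 CPM in parental cells, from 44.5 and 35.4 CPM to 78.9 and 66.9 CPM in #A-59, and from 21.5 and 23.3 CPM to 45 and 37.5 CPM in #B-20. Treated and untreated libraries did not overlap in any genotype, as for 76.1%, 71.7% and 67% of all genes. The log2 fold change of H2-T23 was 1.16 ± 0.141, 0.86 ± 0.139 and 0.88 ± 0.147, with adjusted p-values of 2.6e-06, 6.54e-05 and 0.000156, and it held without any single library. Tap1 rose by 0.64 ± 0.121, 0.60 ± 0.12 and 0.66 ± 0.125, with adjusted p-values of 0.000295, 0.000514 and 0.000461, and each of these calls was lost without 2 of the 4 libraries (highest adjusted p 0.0154, 0.0339 and 0.0128). B2m rose from 449 and 431 CPM to 600 and 555 CPM in parental cells, by 0.39 ± 0.082 (adjusted p = 0.000738), and by 0.30 in #A-59 (adjusted p = 0.0064). The call was lost without the second untreated or the first treated library in parental cells (highest adjusted p = 0.0318), and without the first untreated or either treated library in #A-59 (highest adjusted p = 0.106). In #B-20 its value was 0.17 with a 95% interval of −0.00 to 0.34. The 18 h response of #B-20 followed GC content over all genes (rho 0.23), and with the GC correction B2m was called higher there (0.23, adjusted p = 0.00988). Tap2 had similar values of 0.22, 0.26 and 0.38, of which that of #B-20 passed with an adjusted p of 0.00249, a call that was lost without any one library (highest adjusted p = 0.045). With the GC correction Tap2 was called higher in both clones, by 0.26 in #A-59 (adjusted p = 0.00262) and 0.25 in #B-20 (adjusted p = 0.00596). The classical heavy chain H2-K1 had values of −0.26, −0.38 and −0.36, with adjusted p-values of 0.0903, 0.0144 and 0.0252. After the GC correction H2-K1 was called lower by −0.37 in #A-59 and −0.47 in #B-20, with adjusted p-values of 0.00137 and 0.000311, and H2-D1 by −0.32 in #B-20 (adjusted p = 0.00606). The nonclassical H2-M3 had values of −0.23, −0.25 and −0.56 and did not pass.

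**Figure D4:**
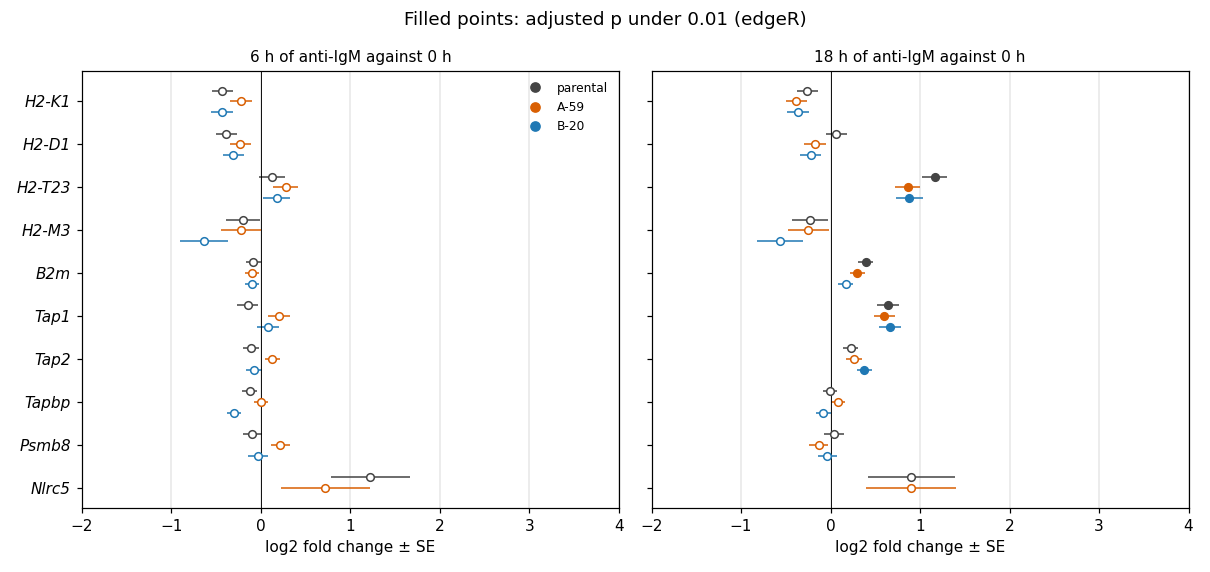
Log2 fold change ± SE of each gene after 6 h and 18 h of anti-IgM against 0 h in parental cells, #A-59 and #B-20. Filled points have an adjusted p under 0.01, and Nlrc5 of #B-20 is left out. No point is filled after 6 h, and after 18 h H2-T23 (1.16, 0.86 and 0.88) and Tap1 (0.64, 0.60 and 0.66) are filled in all 3 genotypes.

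Whether the clones responded differently from parental cells was tested with an interaction term. No member passed at 6 or 18 h in either clone by edgeR, at an unadjusted p under 0.05 there were 0 members in each of the 4 tests, and DESeq2 called 0. Over all genes 0.646% passed for #A-59 and 0.183% for #B-20 after 6 h, and 0.0392% and 0.222% after 18 h. The 95% interval of the difference in the 18 h response of H2-T23 was −0.71 to 0.11 in #A-59 and −0.71 to 0.14 in #B-20. For Tap1 it was −0.40 to 0.32 and −0.34 to 0.39. Responses that differ by less than these limits could not be seen with 2 libraries per group.

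The 9 group means show which members moved together. Tap1 and Tap2 were most alike (Pearson's r = 0.98 over 9 group means of log2 CPM), H2-T23 was most like Tap1 (0.94), B2m most like Tap2 (0.92), and H2-K1 and H2-D1 were most like each other (0.89). H2-M3 had no close partner, with r = 0.71 to Tapbp as its highest. Nlrc5 spread furthest, but its lowest mean is that of untreated #B-20, which is under the floor, so no genes like it are given. The group means share libraries and scaling, and these values are descriptions.

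Further genes of the pathway, from lists written by hand, gave the setting. Of 13 other class I heavy chain genes, 9 were tested. None was a DEG in either clone against parental cells, and 3 were higher in #A-59 after 6 h, where 11.4% of all genes were higher. The nonclassical H2-T24 rose after 18 h in each genotype, by 1.28 in parental cells (adjusted p = 2.38e-07), 1.04 in #A-59 and 0.86 in #B-20 (adjusted p = 2.44e-06 and 5.99e-05), and was lower in #B-20 than in parental cells after 18 h by −0.73 (adjusted p = 0.000215). Of the 5 class I-like genes 3 rose after 18 h in the parental line, 3 in #A-59 and 1 in clone #B-20. Of all genes, 16.4%, 14.7% and 11.4% were higher there. Fcgrt, which encodes the neonatal Fc receptor, rose in parental cells by 2.84 (adjusted p = 0.000399). Its level went from 0.145 and 0.248 CPM (4 and 6 counts) to 1.52 and 1.35 CPM. Cd1d1, chosen after its values were seen, was higher in #B-20 than in parental cells at 0 h, by 0.79 (adjusted p = 0.000736). After 6 h Cd1d1 was a DEG at 1.08 (adjusted p = 3.2e-05), with 23.9 and 21.7 CPM against 12.9 and 8.67 CPM. No class I-like gene passed as lower in #B-20 against parental cells. The 6 genes for loading factors and chaperones other than tapasin gave 1 higher in #A-59 after 6 h and 1 lower after 18 h, and 1 lower in #B-20 after 18 h. The matching shares of all genes were 11.4%, 5.68% and 8.55%.

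Most other proteasome genes went down after 18 h. Of 8 further proteasome genes 6 fell in the parental line, 6 in #A-59 and 5 in clone #B-20, and 0 rose, where 16.2%, 17.1% and 11.4% of all genes were lower. Psme3, which encodes the nuclear proteasome activator PA28γ, fell from 361 and 358 CPM to 153 and 146 CPM in parental cells, by −1.26 (adjusted p = 1.01e-07), and by −1.20 and −1.05 in the clones. The 6 peptidase genes moved both ways, with 1 higher and 2 lower in parental cells, 2 and 2 in #A-59, and 0 and 2 in #B-20. Of all genes, 16.4%, 14.7% and 11.4% were higher and 16.2%, 17.1% and 11.4% were lower in these genotypes. Thop1 and Lap3, whose products trim cytosolic peptides, fell by −1.48 and −1.11 in parental cells (adjusted p = 8.48e-07 and 1.4e-08). Lnpep, chosen after its values were seen and encoding an aminopeptidase of endosomes, rose there by 0.77 (adjusted p = 0.000125). The immunoproteasome subunit gene Psmb9, chosen after its values were seen because it lies head to head with Tap1, was higher in #A-59 after 6 h by 0.99 (adjusted p = 2.36e-05), with 119 and 79.4 CPM against 52 and 48.3 CPM.

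Among 12 regulator genes, Ciita, the MHC class II transactivator, was lower in both clones. It measured 25 and 28.3 CPM in untreated parental cells, 7.58 and 9.63 CPM in #A-59 and 1.47 and 1.55 CPM in #B-20, which gave log2 fold changes of −1.64 and −4.13 (adjusted p = 3.73e-07 and 7.54e-11). Ciita rose after 18 h in all 3 genotypes, by 1.64, 2.38 and 1.93. Irf1, an interferon-induced activator of class I genes, was higher in #A-59 after 6 h by 0.50 (adjusted p = 0.000762) and did not pass in #B-20.

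Of 15 interferon-response genes 14 were tested, and they moved in the clones as well. In #A-59 1 was higher at 0 h, 6 were higher after 6 h, and 1 was higher and 1 lower after 18 h. Of all genes, 5.09%, 11.4% and 4.75% were higher there at these times, and 5.68% were lower after 18 h. In #B-20 4 were lower at 0 h, 2 were lower and 1 higher after 6 h, and 11 were lower after 18 h. There 6.66%, 8% and 8.55% of all genes were lower. After 18 h the first parental library stood above the second for Irf7 (327 and 222 CPM), Usp18 (20 and 8.76 CPM) and Ifit1 (6.69 and 1.56 CPM). Of the genes tested, only Socs1 went the other way (6.51 and 8.09 CPM). How far the 18 h calls of this list rest on that library is not given here. Between the clones 6, 8 and 9 were lower in #B-20, where 5.67%, 10.6% and 8.09% of all genes were lower. The median log2 fold changes of the 14 genes between the clones were −0.81, −1.15 and −1.39. Irf7, a master regulator of type I interferon genes, measured 134 and 120 CPM in parental cells, 184 and 140 CPM in #A-59 and 53.5 and 47.6 CPM in #B-20 at 0 h. Irf7 rose after 18 h by 1.11, 0.90 and 1.09 in the 3 genotypes (adjusted p = 0.000183, 0.00102 and 0.000466). Gbp7, a guanylate-binding protein gene, fell after 6 h in parental cells by −1.17 (adjusted p = 0.000125). Oas1a, of the oligoadenylate synthetase family, was lower after 18 h in #A-59 by −2.77 (adjusted p = 0.00508), and in #B-20 its 2 libraries held at most 3 counts, against 3.66 and 1.3 CPM in parental cells. The part of interferon-response genes in the difference of the members between the clones was not tested.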

How the data were processed

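The 18 libraries of WEHI-231 cells were used, each assigned to groups by their labels. The authors deposited whole-number read counts per Ensembl gene, not normalized. Their non-stranded single-end reads were aligned to GRCm38 with STAR 2.5 and counted with featureCounts 1.5.0-p1, versions taken from the submitters' processing notes. With edgeR 4.0.16 in R 4.3.3, genes were filtered by filterByExpr (15318 kept), scaled by TMM and fitted with a robust quasi-likelihood model of 9 group means over all 18 libraries. P-values were adjusted by Benjamini-Hochberg in each of 19 comparisons. The standard error is the log2 fold change divided by the square root of F.

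The genes and gene lists were chosen with earlier results of these data known. Named were the 10 genes, Tfeb, Ciita, Irf1, and other listed genes that were DEGs of 1 direction in each clone at a shared time or in parental cells at 6 or 18 h. Symbols, exon lengths and GC content came from GENCODE vM39 (93.2% of identifiers, 99.6% of counts), coordinates and promoters from RefSeq on GRCm38. The alternatives were DESeq2 1.42.0, its size factors, other count filters, only the libraries compared, the replicate number as a block, a loess GC correction (span 0.5) and each library left out. The fits were tested on simulated data. P-values measure the spread between libraries of the same group, as 1 estimate per gene shared by all 9 groups and moderated across genes.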

Additional observations from a re-analysis of the deposited data

Results flagged for a closer look

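The differences between the 2 TFEB mutant clones stood out, because both clones were compared with the same parental cells and the test of #B-20 against #A-59 was itself passed (edgeR quasi-likelihood test, Benjamini-Hochberg over all genes, 2 libraries per group). In each case #B-20 was lower. The log2 differences of Tap1 were −1.12 at 0 h, −1.24 at 6 h and −1.06 at 18 h. Those of its partner Tap2 were −0.57, −0.78 and −0.45, and those of Tapbp were −0.43, −0.73 and −0.59. The nonclassical heavy chain gene H2-T23 differed by −0.84, −0.94 and −0.82, and B2m by −0.45, −0.45 and −0.57. Psmb8 differed by −0.48 at 0 h and −0.73 at 6 h, H2-K1 by −0.66 at 6 h, and Nlrc5 by −2.41 at 18 h. Single libraries decided part of these calls. At 0 h the calls of Psmb8 and Tapbp were lost without 3 of the 4 libraries (highest adjusted p 0.111 and 0.0287) and those of H2-T23 and B2m without 2 (0.0211 and 0.021). The 6 h calls of B2m and H2-K1 and the 18 h call of Tap2 were each lost without 1 library (0.015, 0.0107 and 0.01), and that of Nlrc5 without any one of the 4 (0.0673). The GC correction ended the 0 h call of Tapbp (−0.22, adjusted p = 0.0477). Values of interferon-response genes, of GC content and of the macrophage list, there mainly Itgam, that moved with these differences stand in the report, and their part was not tested.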

How the results depend on the processing

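Of the 52 member values that passed the test, DESeq2, its size factors and the replicate block kept all 52 on the same side, the GC correction 47, the block with GC correction 49, no filter on low counts 50, a minimum of 10 counts in every library 49 of 50, and a fit to only the libraries compared 39. None changed sign under these settings. With single libraries left out, 133 of 208 values still passed. The median of all genes moved by at most 0.015 with DESeq2 size factors and 0.031 with the GC correction. When the 16 heavy chain genes were summed, the sign turned for H2-M3 in #A-59 (0.28, 0.49 and 0.08 at 0, 6 and 18 h), for the parental 18 h response of H2-K1 and H2-M3 (0.14) and for H2-T23 at 18 h in #A-59 (−0.06) and #B-20 (−0.10), since the sum replaces each gene's own counts. With 2 libraries per group and 3 counts as the floor, small differences and those of Nlrc5 could not be resolved.

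Counts of members past the test that moved by over 1.5 times were as follows, and the cause was not tested. With only the libraries compared, 1 member passed for #A-59 against parental cells at 6 h (none, 0, as a DEG), 2 at 18 h, 4 for #B-20 against #A-59 at 6 h, and 2 and 1 for the 6 h response of parental cells and #B-20. DESeq2 gave 2 for #A-59 at 18 h and 1 for the parental 6 h response. Without a filter the 6 h responses gave 2 in parental cells and 1 in #B-20. The GC correction gave 3 for #A-59 at 18 h, 2 for #B-20 at 0 h, 2 and 1 for the 6 h responses of parental cells and #B-20, and 5 (4 higher, 1 lower) and 6 (4 higher, 2 lower) for the 18 h responses of #A-59 and #B-20. Among DEGs, #B-20 against parental cells gave 2 both before and after 6 h of stimulation when no filter was used and with only the libraries compared, and 1 at 18 h with a minimum of 10 counts or only the libraries compared. #B-20 against #A-59 gave 2 at 0 h without a filter, 0 at 0 and 6 h with the GC correction, and 1 at 18 h with a minimum of 10 counts or only the libraries compared.

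No label ties same-numbered libraries to each other, and they were not treated as paired. Over the 36 pairs of groups the correlation of their deviations ran from −0.15 to 0.69 with a median of 0.17, 23 exceeded 0.1 and 2 lay below −0.1, while within a genotype all ran from 0.17 to 0.69. The replicate block changed no call of a member value that had passed, and gave 2 DEGs for #B-20 against parental cells at 0 h and at 6 h. The replicate block with the GC correction gave 3 members for #A-59 at 18 h and 5 for the 18 h responses of parental cells and #A-59. It gave 7 for that of #B-20 and 2 for the 6 h responses of #A-59 and of #B-20 and of parental cells. As DEGs it gave 2 for #B-20 at 0 and 6 h, and 0, 0 and 1 for #B-20 against #A-59 at 0, 6 and 18 h.

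Leaving out 1 library, the number of members that passed ranged from 0 to 1, 3 to 7 and 0 to 0 for #A-59 against parental cells at 0, 6 and 18 h, with 0 to 0, 0 to 1 and 0 to 0 DEGs. For #B-20 it ranged from 2 to 3, 2 to 2 and 4 to 5, with 1 to 3 DEGs at 18 h. For the 18 h responses it ranged from 1 to 3 in parental cells, 1 to 2 in #A-59 and 1 to 2 in #B-20, with 0 to 1 DEGs in parental cells and #A-59, and for the 6 h response of #A-59 from 0 to 1. For #B-20 against #A-59 it ranged from 2 to 5, 6 to 8 and 4 to 5, with 0 to 1, 1 to 2 and 0 to 1 DEGs.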
